A study of Mus musculus with 51 samples.

Results

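The 10 imprinted genes H19, Meg3, Peg3, Snrpn, Kcnq1ot1, Mest, Plagl1, Grb10, Peg10 and Nnat were followed through the chromatin tables of a study of the remodeller HELLS and the histone methyltransferase PRDM9 in mouse male germ cells. They are 10 of 55413 genes annotated in GENCODE M21 on mm10. A region belonged to a gene when it overlapped the 1 kb either side of any annotated start (its promoter) or the rest of the gene body. By that rule the genes held 37 of 81887 regions in the ATAC-seq table of KI and B6, 27 of 95109 in the Hells ATAC-seq table, 26 of 91909 in the H3K9ac table and 28 of 78960 for H3K4me3. In the table of F1 allele counts they held 33 of 80892 regions, 17 of them at promoters, and 1 of 2675 HELLS regions.

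The libraries came from enriched germ cells of 12 to 14 day old males, in which the first wave of meiosis is under way. KI stands for B6-Prdm9CAST-KI, C57BL/6J mice that carry a knocked-in CAST form of Prdm9, and B6 for C57BL/6J itself. Spo11/Spo11 mice lack SPO11, the enzyme that makes meiotic DNA breaks, and Spo11/+ mice are their heterozygous counterparts. Hells CKO mice carry a conditional knockout of Hells and Hells wt mice are their controls. The (B6xCAST) F1 animals carry a B6 and a CAST copy of every autosome. ATAC-seq, which marks open chromatin, had 2 KI, 2 B6 and 2 F1 libraries, and 3 Hells CKO and 2 Hells wt libraries. ChIP-seq for H3K9ac, an acetylation of active promoters and hotspots, had 2 KI, 1 Spo11/Spo11, 3 B6 and 1 F1 library. ChIP-seq for H3K4me3, the mark that PRDM9 and active promoters share, had 3 Hells CKO, 1 Hells wt, 2 Spo11/Spo11 and 1 Spo11/+ library. The peak lists for DMC1, which coats single-stranded DNA at breaks, came from whole testis of Hells CKO and Hells het mice aged 6 weeks. HELLS peaks came from whole testis of KI mice aged 12 to 14 days. The driver of the Hells deletion is not given in the sources used here, nor is whether a library pooled several animals. P-values measure the spread between libraries, which may be technical, and that spread was estimated jointly over regions.

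An imprinted gene is read mainly from the copy inherited from 1 parent, under a nearby control region whose DNA methylation was set in the germline of a single parent. Most control regions are methylated on the maternal copy and lie over the promoter of a paternally expressed gene, as at Peg3, Snrpn, Kcnq1ot1, Mest, Plagl1, Peg10 and Nnat. The control regions of H19 and Meg3 lie upstream of the promoter and are methylated on the paternal copy, and both non-coding RNAs are made from the maternal copy. Grb10 has upstream starts used on the maternal copy in many tissues and a downstream start used on the paternal copy in neurons. Somatic cells keep these marks through life, while germ cells erase and rewrite them. The zinc finger protein ZFP57 holds methylation at control regions and recognises the core TGCCGC when it is methylated. CTCF, which insulates the H19 control region on the unmethylated copy, binds a longer motif.

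The stretches below carry ZFP57 cores at the promoters whose allele shares are described first, so that a reader can see what lies inside the counted regions. Each is 150 bases of the GRCm38 (mm10) plus strand, read from the RefSeq genome, outside annotated exons and inside the main F1 promoter region of the gene. Capitals mark TGCCGC or its reverse complement GCGGCA.
Peg10 (chr6:4747780-4747929): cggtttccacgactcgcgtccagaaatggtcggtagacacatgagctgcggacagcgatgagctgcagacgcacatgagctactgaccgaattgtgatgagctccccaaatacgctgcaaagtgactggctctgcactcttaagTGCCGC
Plagl1 (chr10:13091025-13091174): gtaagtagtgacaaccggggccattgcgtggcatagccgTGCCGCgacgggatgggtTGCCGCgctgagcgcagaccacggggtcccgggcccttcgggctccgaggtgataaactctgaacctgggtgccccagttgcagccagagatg
Snrpn (chr7:60004277-60004426): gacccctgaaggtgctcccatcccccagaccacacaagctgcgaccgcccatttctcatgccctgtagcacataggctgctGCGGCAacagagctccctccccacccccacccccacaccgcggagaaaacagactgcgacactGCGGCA
Peg3 (chr7:6730023-6730172): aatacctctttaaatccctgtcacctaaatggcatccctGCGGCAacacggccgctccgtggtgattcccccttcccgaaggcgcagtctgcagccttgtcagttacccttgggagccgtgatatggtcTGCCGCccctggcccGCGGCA
Mest (chr6:30737546-30737695): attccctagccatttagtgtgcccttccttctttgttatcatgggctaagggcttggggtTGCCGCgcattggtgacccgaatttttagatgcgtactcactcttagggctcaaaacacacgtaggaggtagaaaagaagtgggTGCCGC

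Over whole F1 promoter regions, the core was counted on both strands. Mest held 12 matches (2.27 per kb), Snrpn 10 (2.26 per kb), Nnat 8 (2.3 per kb), Peg3 8 (1.52 per kb) and Plagl1 6 (1.86 per kb). The downstream Grb10 promoter held 4 (1.44 per kb), Kcnq1ot1 3 (0.84 per kb), Peg10 3 (0.6 per kb), Meg3 1 (0.29 per kb) and H19 0. Of the 25767 promoter regions in the F1 table, 48.0% held a match, and the median density was 0.0 per kb. Among main promoters, Mest, Snrpn and Nnat each stood at or above 99.5% of those regions in density. A short upstream Grb10 region of 375 bases, which had 0 allele counts, was denser, with 2 matches (5.33 per kb). In the 250 bases upstream of RefSeq starts the core was in 8.68% of 32851 promoters, and in 4 of 15 promoters of the 8 imprinted genes listed there, at Mest, Plagl1 and Meg3. The Mest windows that held it overlap almost fully and share the same matches, so they are not separate promoters in this count. These matches are letters only and no binding of ZFP57 was measured.

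The H19 control region, as RefSeq annotates it, spans 2586 bases upstream of the gene (chr7:142580248-142582833) and holds 4 annotated CTCF sites. All 4 carried the CTCF core, searched on both strands and printed here in capitals on the minus strand, and 0.103% of the 32851 upstream promoter windows held it too. The 2 sites nearest to H19, m4 and m3, lie inside the F1 region that is read below.
m4 (chr7:142580301-142580347): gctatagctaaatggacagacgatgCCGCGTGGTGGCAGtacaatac
m3 (chr7:142580756-142580803): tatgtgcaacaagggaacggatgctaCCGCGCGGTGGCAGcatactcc
m2 (chr7:142581782-142581826): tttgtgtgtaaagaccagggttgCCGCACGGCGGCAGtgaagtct
m1 (chr7:142582026-142582073): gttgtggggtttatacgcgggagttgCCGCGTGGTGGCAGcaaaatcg

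Totals per library were 27952728 to 34572929 counts in the ATAC table of KI and B6, and 6416704 to 11352108 in the Hells ATAC table. They were 13195275 to 30233934 for H3K9ac, 13321006 to 42007820 for H3K4me3 and 6497850 to 9800791 allele counts in the F1. The H3K9ac libraries of B6 stood apart from each other. Over 7272 H3K9ac regions outside promoters that overlap a DMC1 peak of Hells het testis, the median was 1.30 and 1.51 CPM (counts scaled by library total) in KI and 4.40 CPM in Spo11/Spo11. In B6 it was 6.99 CPM in replicate 2 but 1.68 and 1.70 CPM in replicates 1 and 3. Marker promoters of Sertoli, Leydig and peritubular, stromal and endothelial cells carried counts in every library of the count tables. Those of blood and macrophages had 0 regions in ATAC of KI and B6. In the F1, the 10 germ cell marker promoters summed to 566 and 491 CPM in ATAC and 456 in H3K9ac, and the 9 Sertoli marker promoters with a region to 347 and 366 in ATAC and 674 in H3K9ac. Peritubular, stromal and endothelial ones summed to 218 and 244 in ATAC and 201 in H3K9ac. Fewer cells of a type and less signal per cell cannot be told apart in such bulk libraries. H3K4me3 at the Hells promoter was 57.5 to 89.4 CPM over the Hells CKO libraries, against 54.8 CPM for Hells wt, and the sources used here do not say whether that promoter lies in the deleted part.

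Peg3 had the most open promoter of the 10 genes. Per kb of its main ATAC region (the one with the most counts), Peg3, which encodes a zinc finger protein, averaged 65.9 CPM per kb in KI and 73.9 in B6. Kcnq1ot1, an antisense RNA that silences its neighbours, averaged 24.7 and Grb10, an adaptor that dampens growth signals, 24.1 CPM per kb in KI, against 27.9 and 27.4 in B6. Peg10, derived from a retrotransposon, averaged 21.9 CPM per kb in KI and 27.7 in B6, and Plagl1, a zinc finger transcription factor, 13.6 and 19.1. Meg3 and Mest averaged 11.0 and 10.6 CPM per kb in KI, against 12.5 and 12.6 in B6. The Meg3 region read here lay past the first start of the gene, with its centre 965 bases from an internal start. Snrpn, which encodes a splicing protein, Nnat, a small membrane protein, and H19 averaged 9.75, 8.61 and 8.10 CPM per kb in KI, against 13.6, 13.1 and 10.03 in B6. In KI the ranges of 1 SD about the mean overlapped among Kcnq1ot1, Grb10 and Peg10, between Meg3 and Mest, Mest and Snrpn, and Nnat and H19 (n = 2). For H3K4me3, Peg3 was again the highest, with 25.7 CPM per kb in Hells CKO, 19.3 in Hells wt, 25.9 in Spo11/Spo11 and 29.1 in Spo11/+. At the low end H19 had 5.95 CPM per kb in Hells CKO, 7.05 in Hells wt, 6.10 in Spo11/Spo11 and 6.08 in Spo11/+, close to Meg3 with 6.80, 6.73, 7.37 and 7.36.

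**Figure D1:**
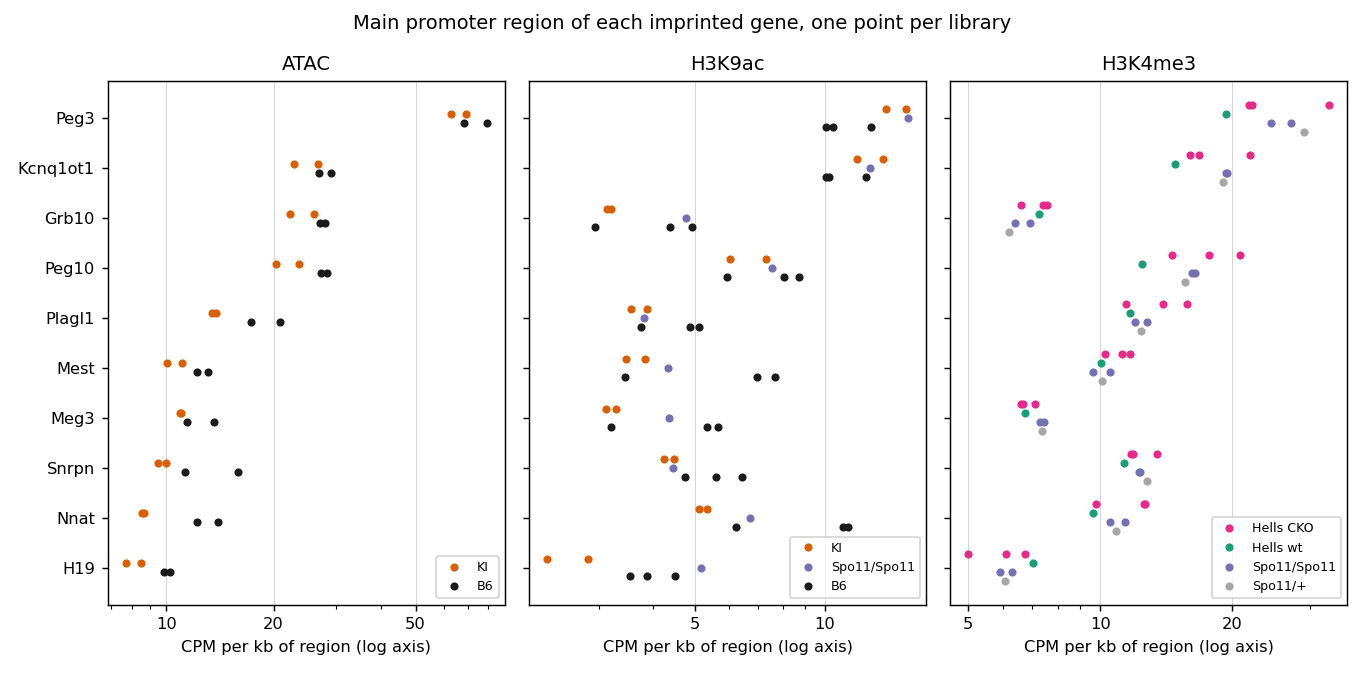
Level of the main promoter region of each gene, in CPM per kb of region on a log axis, with 1 point per library: ATAC-seq in KI and B6, H3K9ac in KI, Spo11/Spo11 and B6, and H3K4me3 in Hells CKO, Hells wt, Spo11/Spo11 and Spo11/+. Peg3 is the highest gene in the ATAC and H3K4me3 panels, and B6 H3K9ac libraries spread widely at Mest and Nnat. For Grb10 the main region is the downstream start in ATAC and the upstream starts in both ChIP panels. For Meg3 it lies past the first start in ATAC and covers that start in both ChIP panels.

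In the F1, the counts of each region were split between the B6 and the CAST allele. Over autosomes the B6 allele had 50.5% and 50.4% of ATAC counts and 51.2% of H3K9ac counts. On chromosome X it had 93.6% and 93.3% of ATAC counts and 97.8% of H3K9ac counts. A male takes his X from his mother, so the B6 allele was the maternal one and the CAST allele the paternal one in these animals. No reciprocal cross was read, so parent of origin and strain sequence cannot be told apart at any region. The 95% intervals given with the shares are exact binomial ones and hold counting error alone. H3K9ac had 1 F1 library and carries no test.

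At the promoters of the paternally expressed genes, most H3K9ac counts came from the CAST allele. Peg10 had 22 B6 and 92 CAST counts, a B6 share of 19.3% (12.5 to 27.7). Plagl1 had 19 B6 and 60 CAST counts, a share of 24.1% (15.1 to 35.0). Both shares and their intervals lay below the 5th percentile, 35.9%, of the 19089 promoter regions with at least 20 H3K9ac counts, whose median was 50.9% and 95th percentile 66.7%. The shares given below for Snrpn, Kcnq1ot1, Peg3, the second Plagl1 region and the downstream Grb10 promoter were also under that percentile, Peg3 narrowly. Their intervals reached above it, and the share of Mest lay above it.

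Snrpn had 56 B6 and 120 CAST counts (31.8%, 25.0 to 39.2), and Kcnq1ot1 103 and 220 (31.9%, 26.8 to 37.3). Peg3 had 180 B6 and 323 CAST counts, a B6 share of 35.8% (31.6 to 40.1). The Mest promoter, whose product is a hydrolase-like protein, had 38 B6 and 51 CAST counts (42.7%, 32.3 to 53.6), and its interval included equal shares. Nnat had 1 B6 and 4 CAST counts and could not be read. A second Plagl1 promoter region, about the more upstream starts, had 17 B6 and 34 CAST counts (33.3%, 20.8 to 47.9).

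The H19 promoter went the other way. It had 22 B6 and 8 CAST counts of H3K9ac, a B6 share of 73.3% (54.1 to 87.7). Upstream of it, the F1 region over the 2 CTCF sites m4 and m3 had 26 B6 and 0 CAST counts, a share of 100% (86.8 to 100). In ATAC the same region had 23 B6 and 17 CAST counts in replicate 1 and 13 and 9 in replicate 2, so CAST reads were counted there by ATAC. Meg3, the other maternally expressed RNA, had 43 B6 and 35 CAST counts at its promoter (55.1%, 43.4 to 66.4).

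Grb10 was split by start. Its downstream promoter had 8 B6 and 20 CAST counts of H3K9ac, a B6 share of 28.6% (13.2 to 48.7). The region over the farthest upstream starts had 22 B6 and 3 CAST counts, a share of 88.0% (68.8 to 97.5). The 2 intervals did not overlap. Another Grb10 region between them had 11 B6 and 6 CAST counts, under the minimum of 20.

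Counted over the 13 promoter regions of 9 genes with at least 20 H3K9ac counts, 7 had a CAST count at least 1.5 times the B6 count and 2, at Grb10 and H19, had the reverse. Over all promoter regions that reached the same depth, CAST was at least 1.5 times B6 in 8.60% and B6 at least 1.5 times CAST in 12.0%. By main promoter the counts were 6 CAST, 1 B6 and 2 between of 9. The markers of Sertoli and germ cells given above were both present in these libraries, and the part of each cell type in the shares was not tested.

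In ATAC the B6 share pooled over libraries was also below 50% at the promoters of Peg10, Peg3, Plagl1, Snrpn, Kcnq1ot1 and Mest. It was nearer to 50% than the H3K9ac share at Peg10, Plagl1, Snrpn and Kcnq1ot1, a difference that was not tested. Here the 2 F1 libraries allowed a test over 58870 regions (edgeR's quasi-likelihood test with library as a block, log2 of B6 over CAST, Benjamini-Hochberg adjusted). The spread at each region was estimated jointly with that of other regions. SE and p thus do not rest on the disagreement between its 2 libraries alone. Among the 13 promoter regions tested, 5 had a higher CAST allele; over all 20284 promoter regions tested, 5.08% had a higher CAST allele. Peg3 had 1179 B6 and 1927 CAST counts in replicate 1 and 833 and 1664 in replicate 2 (log2 -0.85, SE 0.06, edgeR adjusted p = 1.8e-28). Snrpn had 184 and 251, then 167 and 266 (log2 -0.56, SE 0.13, edgeR adjusted p = 2.4e-04). At both genes the B6 allele was the lower in each library.

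Kcnq1ot1 had 267 B6 and 354 CAST counts in replicate 1 and 216 and 301 in replicate 2 (log2 -0.44, edgeR adjusted p = 0.0011). Plagl1 (log2 -0.64, edgeR adjusted p = 0.033) and Mest (log2 -0.59, edgeR adjusted p = 0.032) also passed, with 70 and 94, then 49 and 90 counts at Plagl1, and 71 and 100, then 67 and 108 at Mest. Peg10 did not, with 96 and 127, then 78 and 110 (log2 -0.45, edgeR adjusted p = 0.092). Calls at Plagl1 and Mest were lost when the minimum was 10 allele counts or the library block was left out, and of the 5 promoters DESeq2 called Peg3 alone.

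Neither maternally expressed RNA passed in ATAC. H19 had 36 B6 and 18 CAST counts in replicate 1 but 16 and 25 in replicate 2, so the libraries disagreed in direction. Meg3 had 56 and 76, then 55 and 52, and disagreed likewise. At Grb10 neither tested promoter region passed, and the one over the farthest upstream starts was too shallow to test. The downstream Grb10 promoter had 73 and 75, then 34 and 68, and the region over its upstream starts 4 and 8, then 12 and 4. At Peg10 the ATAC share pooled over libraries was 42.3%, against 19.3% for H3K9ac, and at Peg3 it was 35.9%, against 35.8%.

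**Figure D2:**
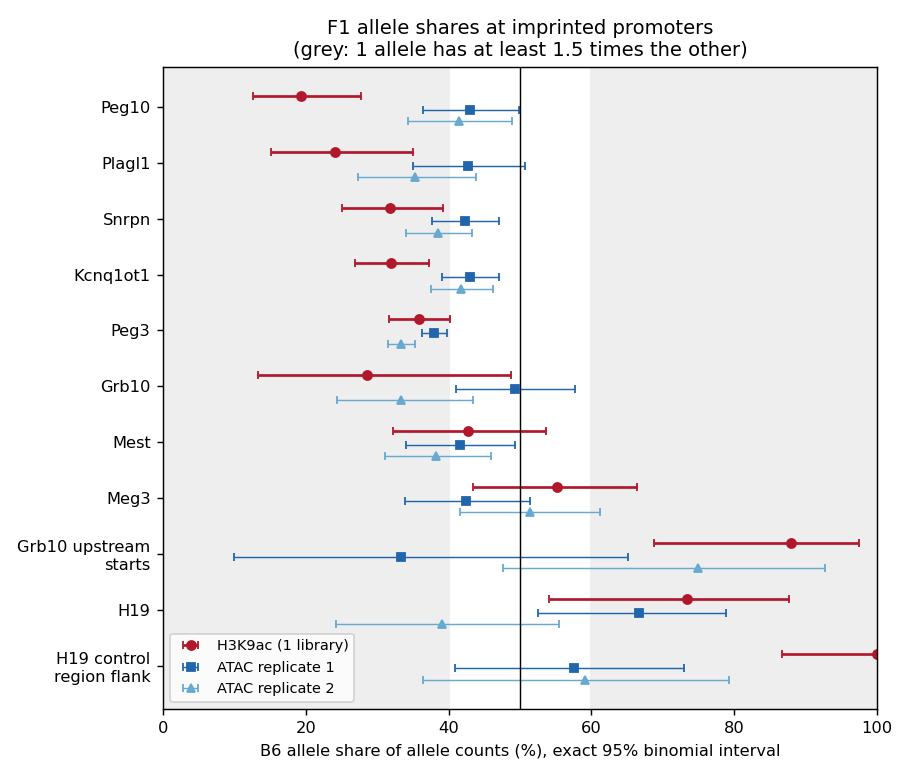
Share of F1 allele counts from the B6 allele, in percent, at the promoters of 9 genes and the flank over the H19 control region, with exact 95% binomial intervals; red circles are the H3K9ac library, squares and triangles the 2 ATAC libraries, and grey marks shares at which an allele has at least 1.5 times the other. H3K9ac lies at 19.3% for Peg10 and 24.1% for Plagl1 and at 73.3% for H19, while both ATAC shares lie nearer to the line at 50% for Peg10 and Plagl1 but not for Peg3.

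Other imprinted genes were read by the same rule. Of 23 paternally expressed genes, 18 had a main promoter region with at least 20 H3K9ac counts, and in 12 of them CAST was at least 1.5 times B6 and in 0 the reverse. Of those 12, Sgce, Snurf and Usp29 share the region of Peg10, Snrpn and Peg3; without shared regions the count was 9 of 15. Impact had 72 B6 and 296 CAST counts (19.6%), Zrsr1 74 and 203 (26.7%), Zdbf2 49 and 125 (28.2%) and Peg13 169 and 394 (30.0%). In ATAC, 8 of 21 had a higher CAST allele, with a median log2 of -0.45. Without shared regions the count was 6 of 18, with a median log2 of -0.24. Of the 4 just named, Peg13 (log2 -1.48), Zrsr1 (-1.02) and Impact (-0.93) passed, and Zdbf2 (-0.57) did not.

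Among 20 maternally expressed genes, 15 could be read, and 2 were higher on the B6 allele (Copg2 and Igf2r), 2 on the CAST allele (Ascl2 and Zim2) and 11 lay between. Igf2r, a receptor that clears a growth factor, had 122 B6 and 57 CAST counts. Its antisense RNA Airn, made from the paternal copy, had 51 and 88. Of 12 factors that set or keep imprints, 10 lay between, and Ctcfl (64 and 30) and Dnmt3a (29 and 8) were higher on the B6 allele.

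Inside the gene bodies, single sites differed between the Prdm9 genotypes. In ATAC of KI against B6, 7 of the 37 regions passed edgeR's quasi-likelihood test at an adjusted p under 0.05, 5 higher and 2 lower in KI. Of all regions in that table, 7.14% rose and 2.27% fell in KI. The 5 were 2 sites in Kcnq1ot1, 2 in Grb10 and 1 in Meg3.

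At 87.4 kb from the Kcnq1ot1 start, ATAC signal was 17.2 and 15.4 CPM in KI, against 0.85 and 0.34 CPM in B6 (log2 4.78, SE 0.32, edgeR adjusted p = 6.4e-07). At 49.6 kb it was 10.3 and 8.64 CPM in KI, against 1.45 and 0.63 in B6 (log2 3.20, SE 0.34). Near the 3′ end of Meg3, 21.8 kb from the nearest start, it was 9.24 and 7.34 CPM in KI, against 1.68 and 1.81 in B6 (log2 2.25, SE 0.26). The groups did not overlap at any of these sites.

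At the 3′ end of Grb10 a site had 3.80 and 3.78 CPM in KI, against 0.30 and 0.26 in B6 (log2 3.76, SE 0.38). A second Grb10 site, 24.6 kb from a start, had 9.06 and 10.1 CPM in KI, against 4.40 and 4.90 in B6 (log2 1.04, SE 0.21), and lost its call without KI replicate 2. One site went down: 34.3 kb from the Kcnq1ot1 start, ATAC was 3.69 and 5.84 CPM in KI, against 18.6 and 11.3 in B6 (log2 -1.64, SE 0.27, edgeR adjusted p = 8.8e-04). Library batch, inferred here and below from the leading part of the library identifiers, follows the strain. A batch difference thus cannot be told apart from strain in this table.

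H3K9ac rose at the same 5 places, by overlapping regions, and these were the 5 calls of 26 regions. Here too the library batches follow the strain and cannot be told apart from it. Of all H3K9ac regions, 12.1% rose and 0.208% fell. The Kcnq1ot1 site at 87 kb had 26.1 and 32.0 CPM in KI, against 0.42, 1.76 and 0.65 in B6 (log2 5.04, SE 0.58, edgeR adjusted p = 0.0085), and the Spo11/Spo11 library had 2.37. The site at 49.5 kb had 8.97 and 8.41 CPM in KI, against 0.13, 0.57 and 0.23 in B6 (log2 4.93), and the Meg3 site 20.03 and 21.8 CPM, against 0.61, 2.08 and 0.68 (log2 4.30). The 2 Grb10 sites had 12.5 and 14.9, and 19.4 and 20.3 CPM in KI, against 0.65, 1.95 and 0.78, and 2.71, 2.64 and 2.64 CPM in B6 (log2 3.66 and 2.89).

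No H3K9ac call was left without KI replicate 1 or without KI replicate 2, and 1 was left without B6 replicate 3. Against B6 replicate 2 alone, the log2 values of the 5 sites were 2.83 to 4.07. That library was singled out after seeing the data, for its high level at DMC1 sites, and has no replicate, so these values are a description with no test. The Kcnq1ot1 site at 34 kb, which overlaps a DMC1 peak of Hells het testis, had 2.08 and 2.48 CPM in KI, against 2.13, 13.5 and 2.19 CPM in B6 replicates 1, 2 and 3, and did not pass (log2 -1.35, edgeR adjusted p = 0.41). The Spo11/Spo11 library had 8.10 CPM there.

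The F1, which carries both forms of Prdm9, gave an allele reading of these sites. The Kcnq1ot1 site at 87 kb had 95 B6 and 61 CAST ATAC counts in replicate 1 and 108 and 37 in replicate 2 (log2 1.06, SE 0.23, edgeR adjusted p = 1.1e-04), and 70 and 36 H3K9ac counts. The site at 49 kb had 85 and 4, then 52 and 13 ATAC counts (log2 2.97, SE 0.37, edgeR adjusted p = 4.0e-12), and 26 and 7 H3K9ac counts. Both Kcnq1ot1 sites that were higher in KI were higher on the B6 copy of the DNA, and the F1 call at 87 kb was lost with DESeq2.

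The site at 34 kb, lower in KI, was reversed. It had 69 B6 and 561 CAST ATAC counts in replicate 1 and 51 and 413 in replicate 2 (log2 -3.02, SE 0.14, edgeR adjusted p = 1.7e-55), and 17 and 182 H3K9ac counts, a B6 share of 8.54% (5.06 to 13.3). The Meg3 site had 31 and 30, then 22 and 24 ATAC counts and did not pass (log2 -0.03), and its H3K9ac counts were 23 and 13 (63.9%, 46.2 to 79.2). The Grb10 site at 24.6 kb had 49 and 33, then 45 and 44 ATAC counts and did not pass (log2 0.29), and 73 and 48 H3K9ac counts (60.3%, 51.0 to 69.1). The site at the 3′ end of Grb10 had 8 and 6, then 13 and 13 ATAC counts, too few for the test, and 17 and 7 H3K9ac counts (70.8%, 48.9 to 87.4). In H3K9ac these 3 sites thus had at least 1.5 times as many B6 as CAST counts, while their ATAC counts pooled over libraries were closer to equal. A Snrpn body region (chr7:60132051-60134479) with no overlapping region in the KI and B6 ATAC table had 36 and 49, then 24 and 56 ATAC counts (log2 -0.81, edgeR adjusted p = 0.044) and 9 and 33 H3K9ac counts. Its call was lost with DESeq2, with a minimum of 10 allele counts and without the library block. Across bodies and promoters, 9 of 24 tested regions passed, 2 with a higher B6 and 7 with a higher CAST allele, where 8.84% and 7.75% of all tested regions did.

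**Figure D3:**
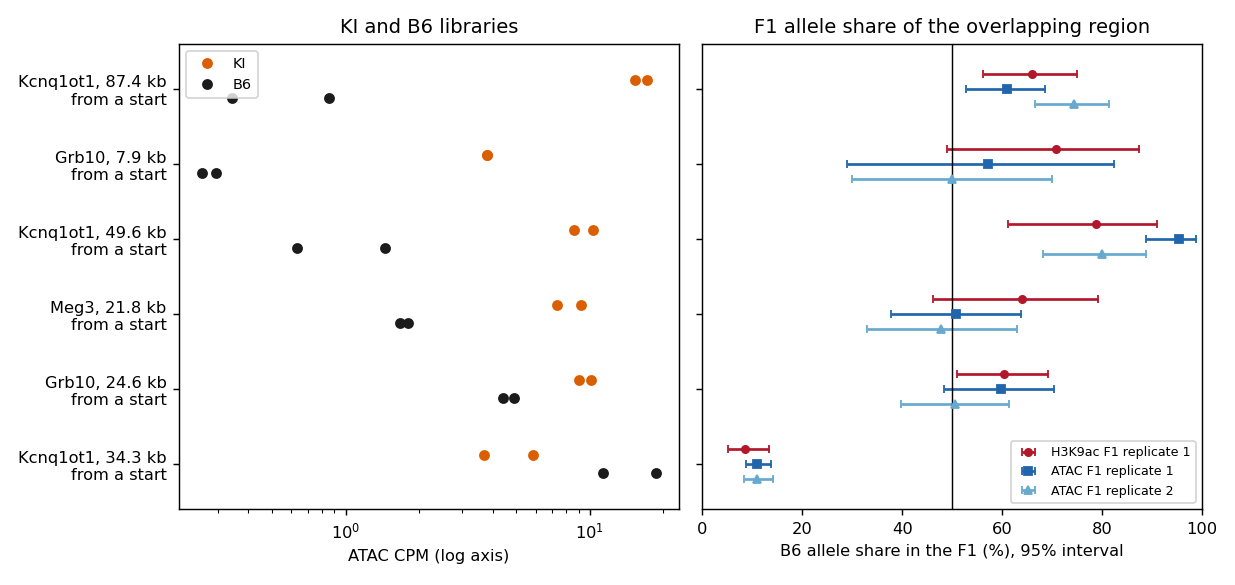
The 6 gene-body sites that passed in ATAC of KI against B6: left, CPM on a log axis with 1 point per library; right, the B6 allele share of the overlapping F1 region in percent with exact 95% intervals. KI lies above B6 at 5 sites and below it at the Kcnq1ot1 site 34.3 kb from a start, where the F1 shares lie near 11% in ATAC and at 8.54% in H3K9ac.

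The site at 87 kb in Kcnq1ot1 was also the only HELLS peak in the promoters or bodies of the 10 genes. A HELLS peak lay in the promoter or body of 4.73% of all genes. It spanned chr7:143208929-143209369 and had 49 and 33 counts in the HELLS libraries of KI testis, against 2 in IgG and 4 in input. These are raw counts, and the libraries differ in depth: summed over the 2675 regions they had 185076 and 153260 counts for HELLS, against 27308 for IgG and 46279 for input, which are not their full depths. Its middle 200 bases are printed because ATAC, H3K9ac, HELLS and the F1 alleles all bear on this one place (GRCm38, plus strand, read from the RefSeq genome, with 1 CpG).
Kcnq1ot1 HELLS peak centre (chr7:143209049-143209248): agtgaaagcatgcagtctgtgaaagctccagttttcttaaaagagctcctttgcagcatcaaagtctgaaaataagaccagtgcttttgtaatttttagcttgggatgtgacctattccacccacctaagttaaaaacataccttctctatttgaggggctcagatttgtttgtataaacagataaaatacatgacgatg

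The promoters moved little between KI and B6. Nnat was the single promoter call in ATAC, with 10.02 and 9.88 CPM in KI, against 14.1 and 16.1 in B6, an edgeR adjusted p of 0.048, and it was lost without either KI library. Snrpn had 18.8 and 17.8 CPM in KI, against 21.2 and 29.7 in B6 (log2 -0.48, SE 0.18, edgeR adjusted p = 0.18). Plagl1 had 27.4 and 26.7 CPM in KI, against 34.4 and 41.3 in B6 (log2 -0.48, SE 0.15, edgeR adjusted p = 0.085). The median log2 over the 10 main promoters was -0.28, and -0.13 over all 22620 promoter regions.

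In H3K9ac no main promoter passed. The median log2 of KI to B6 over the 10 main promoters was -0.37, and -0.09 over all 25540 promoter regions. Mest had 22.1 and 19.98 CPM in KI, against 44.3, 19.8 and 40.1 in B6, so KI lay near B6 replicate 2 and below the others. Nnat showed the same pattern, with 14.4 and 13.9 CPM in KI, against 30.7, 16.9 and 29.9 in B6. The B6 libraries with high Mest and Nnat had higher Leydig, stromal and Sertoli marker sums than replicate 2. Leydig sums, over 5 of 6 markers, were 77.2, 45.3 and 86.2 CPM in B6 replicates 1, 2 and 3, and 47.5 and 42.7 in KI. Peritubular, stromal and endothelial sums were 241, 166 and 236, and 185 and 173 in KI. Sertoli sums were 593, 448 and 552, and 556 and 416 in KI. Germ cell sums were 324, 329 and 312, and 354 and 345 in KI. Blood and macrophage sums were 2.55, 6.49 and 4.27, and 10.3 and 14.5 in KI. The part of these cell types in the result was not tested. The Peg3 promoter went the opposite way to Mest and Nnat, with 96.4 and 86.8 CPM in KI, against 65.2, 80.0 and 63.0 in B6 (log2 0.40, edgeR adjusted p = 0.18).

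The main promoter regions of other imprinted genes and of the factors had no call, and those called were other promoter regions of a gene. In ATAC 0 of 22 paternally and 0 of 16 maternally expressed genes had a call. Among 19 promoter regions of the factors, 1 of Dnmt1, the maintenance methyltransferase, was higher in KI (log2 2.11). A region of Kdm1b, a histone demethylase needed for maternal imprints, was lower (log2 -1.39). Of all ATAC regions 7.14% rose and 2.27% fell. In H3K9ac, 2 of 21 factor regions were higher in KI, at Dnmt1 (log2 4.52) and Dnmt3l (3.35), where 12.1% of all regions rose. Of 28 regions of maternally expressed genes, 2 were higher, at Commd1 (3.22) and Zim1 (3.08), and 1 at Igf2r was lower (-0.87). Of 29 regions of paternally expressed genes 0 were called.

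Loss of HELLS was followed in H3K4me3. Of 28 regions, 5 fell in Hells CKO relative to Hells wt and 0 rose, while 11.7% of the whole table fell and 0.0279% rose. The single Hells wt library has no replicate, so its spread was taken from the other groups in the fit. All 5 overlapped DMC1 peaks of Hells het testis. The share of all fallen regions that do so was not counted, so this is no trait particular to these genes.

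At the Kcnq1ot1 site 34.4 kb from its start, H3K4me3 was 1.15, 1.60 and 0.81 CPM in Hells CKO, against 9.92 in Hells wt, 12.1 and 8.96 in Spo11/Spo11 and 12.7 in Spo11/+ (log2 -3.09 to Hells wt, SE 0.33, edgeR adjusted p = 3.7e-04). This is the place that was lower in KI and carried mostly CAST counts in the F1. A second site, 42.1 kb from the Kcnq1ot1 start, had 0.31, 0.77 and 0.48 CPM in Hells CKO, against 3.05 in Hells wt (log2 -2.59). Its Spo11/Spo11 and Spo11/+ levels were 2.37, 1.97 and 2.99 CPM.

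Near H19, a region 0.2 kb from an annotated internal start had 0.37, 0.62 and 0.84 CPM in Hells CKO, against 4.96 in Hells wt (log2 -3.03, SE 0.43, edgeR adjusted p = 9.7e-04). The adjoining main H19 promoter region had 10.9, 14.7 and 13.3 CPM in Hells CKO, against 15.4 in Hells wt, and did not pass. In Snrpn, the site 20 kb from a start had 0.78, 0.67 and 0.66 CPM in Hells CKO, against 3.40 in Hells wt (log2 -2.26), and the one at 9.3 kb had 0.09, 0.36 and 0.07, against 1.35 (log2 -3.05). The call at 9.3 kb was lost without Hells CKO replicate 3. Library batches held 1 Hells wt and 1 Hells CKO library together once, replicate 2 of CKO; within that batch the 5 log2 differences were -2.58, -1.88, -2.87, -2.23 and -1.72 in the order given here, with no test.

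**Figure D4:**
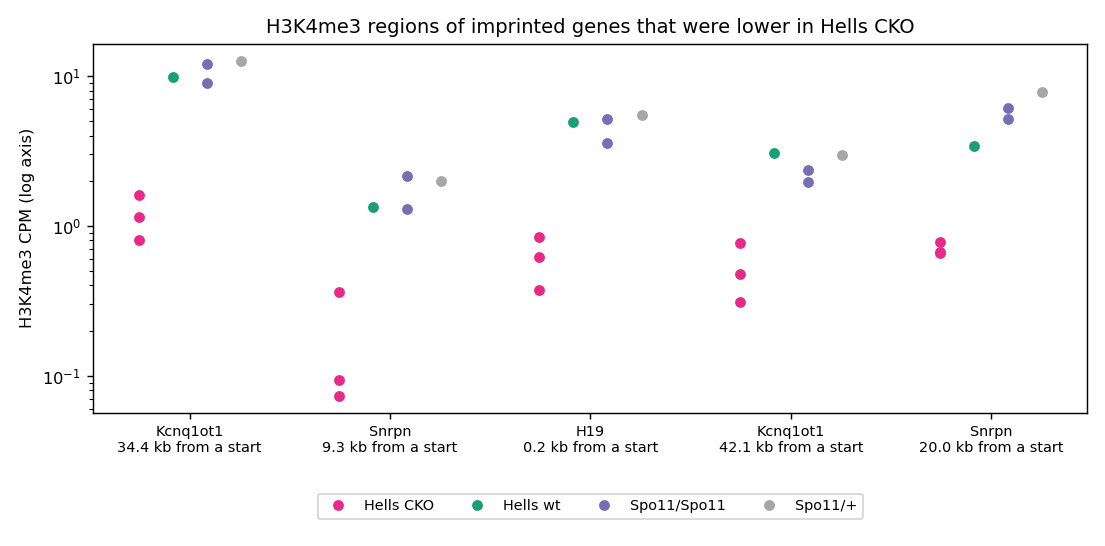
H3K4me3 in CPM on a log axis at the 5 regions that passed in Hells CKO against Hells wt, 1 point per library, for Hells CKO, Hells wt, Spo11/Spo11 and Spo11/+. Every Hells CKO point lies below the points of the 3 other groups, with 0.81 to 1.60 CPM against 8.96 to 12.7 at the Kcnq1ot1 site 34.4 kb from a start.

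No main promoter passed in H3K4me3. Peg3 had 177, 116 and 118 CPM in Hells CKO, against 103 in Hells wt (log2 0.41, SE 0.29), and Kcnq1ot1 83.2, 63.4 and 60.7, against 56.0 (log2 0.30, SE 0.25). The median log2 over the 10 main promoters was 0.19, as it was over all 24840 promoter regions. Sertoli marker promoters summed to 792, 587 and 860 CPM in Hells CKO and 535 in Hells wt. Germ cell ones summed to 482, 402 and 386, against 372, and peritubular, stromal and endothelial ones to 311, 308 and 344, against 275. Leydig ones summed to 9.48, 19.9 and 17.6, against 17.5, and blood and macrophage ones to 1.65, 1.91 and 1.83, against 2.48. The part of these cell types in the promoter values was not tested. Among 20 promoter regions of the factors, regions of Kdm1b (log2 -3.13) and Uhrf1 (log2 -3.11), which guides maintenance methylation, were lower in Hells CKO. Neither was the main promoter region of its gene.

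DMC1 peaks showed where breaks lay. In Hells CKO testis, DMC1 peaks lay at 8 of the 10 promoters, all except H19 and Nnat. In Hells het testis they lay at 2, H19 and Mest. Over all genes, 21.0% had a Hells CKO peak and 4.84% a Hells het peak at a promoter, and among genes with an H3K4me3 promoter region 43.9% had a Hells CKO peak. Counting bodies as well, 5 genes held a Hells het peak (Grb10, H19, Kcnq1ot1, Mest and Snrpn), as did 13.1% of all genes. Each list merges its replicates and carries no score, so no test was made.

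Hells CKO peaks at the promoters were 1848 to 4460 bases wide at the 6 paternally expressed genes that had one. The Peg10 peak was 4460 bases wide, those of Plagl1, Peg3 and Mest 3344, 3354 and 3170, and those of Snrpn and Kcnq1ot1 2667 and 1848. Mest had another of 1477 bases nearer its upstream starts, and Meg3 one of 2181. At Grb10 a peak of 1973 bases lay over the upstream starts and one of 800 bases 1476 bases inside the downstream start. The Hells het peak at H19, 1168 bases wide, covered the region that lost H3K4me3, and that at Mest lay 2000 bases from the nearest start by its centre.

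ATAC in Hells CKO against Hells wt called 0 of 27 regions, where 0.382% of all regions were called in either direction; DESeq2 also called 0, and 1 region had an unadjusted p under 0.05. That region was the Kcnq1ot1 site at 34 kb, with 4.43, 2.45 and 2.27 CPM in Hells CKO, against 6.48 and 6.08 in Hells wt, and it passed when library batch was a term (log2 -0.94, edgeR adjusted p = 0.014). Peg3 had 190, 153 and 152 CPM in Hells CKO, against 227 and 159 in Hells wt, and Snrpn 16.6, 13.8 and 14.2, against 13.6 and 14.4. No promoter of the other imprinted genes or factors passed either, and the 2 with the largest log2 of each list were small (Ctcfl -0.24, Yy1 -0.19, Zim2 -0.45, Asb4 -0.44, Sgce 0.39 and Igf2 0.33).

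Loss of SPO11 gave no call, in comparisons that each set a single library on 1 side (Spo11/+ in H3K4me3, Spo11/Spo11 in H3K9ac), whose spread was taken from the other groups in the fit. What size of difference they could have shown was not tested, and in H3K9ac the library batch follows the genotype. In H3K4me3 of Spo11/Spo11 against Spo11/+, 0 of 28 regions passed and 0% of all regions did; DESeq2 called 0 of the 28, and 0 had an unadjusted p under 0.05. In H3K9ac of Spo11/Spo11 against B6, 0 of 26 passed and again 0% of all regions; DESeq2 called 0 of the 26, and 1, the Peg3 promoter, had an unadjusted p under 0.05 (edgeR adjusted p = 0.92). Peg3 had 97.5 CPM in Spo11/Spo11, against 65.2, 80.0 and 63.0 in B6. Which B6 libraries served as the reference changed the number of calls in this H3K9ac comparison. The shift was seen over all regions and was not particular to these genes, with the counts given at the end.

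The authors' chromatin map divides the genome into 11 states. State 1 covered 1.60% of the genome, and 97.1% of its bases lay in H3K4me3 regions, 96.1% in H3K9ac regions and 73.2% in ATAC regions. It took up 100% of the Peg10 promoter windows, 88.7% of those of Nnat and 72.6% of those of Kcnq1ot1, against 16.1% over all genes. The shares were 40.6% for Peg3, 28.5% for Meg3, 27.2% for Snrpn, 25.9% for Mest, 22.2% for H19, 16.8% for Plagl1 and 9.89% for Grb10. Except at Peg10, part of the windows lay in other states. For Peg3, 49.9% lay in state 11, against 27.8% over all genes. These were 2001 bases, the width of 1 whole window about a single start, and the rest of the Peg3 windows lay in states 1 and 2. State 11 held 0.175% of its bases in H3K4me3 regions. The largest share of the Snrpn windows lay in state 9, which held 0.0593% of its bases in H3K4me3 regions. A further 22.8% of the Snrpn windows lay in state 2, against 6.15% over all genes. State 2 held 90.3% of its bases in H3K4me3 regions. For H19, 27.7% of the windows lay in state 7, against 0.734% over all genes. State 7 held 88.8% of its bases in H3K4me3 regions.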

How the data were processed

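The series has 51 samples, and values came from tables deposited by the authors, in which only some of them have a column: raw counts per region (ATAC, H3K9ac, H3K4me3, HELLS), estimated counts per region and allele of the F1 (all whole numbers as deposited by the authors), DMC1 and HELLS peak positions, and 11 chromatin states given as a category. Per the submitters' processing notes the build was mm10 and the tools were CASAVA, BWA 0.7.15, Bowtie 0.12.9 and MACS 1.4.2; which made each file is not given in the sources used here. The segmentation ended within 200 bases of the GRCm38 end on 21 of 21 chromosomes. Columns were matched by name, KI and B6 ATAC columns only to their group, and 10 columns matched to no sample were not used. Of the Hells ATAC regions 56 duplicates were removed.

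From the deposited counts, edgeR 4.0.16 (R 4.3.3) gave TMM-scaled CPM and quasi-likelihood tests over all regions after filterByExpr, with Benjamini-Hochberg adjustment at 0.05. F1 ATAC regions needed 20 allele counts in every library. DESeq2 1.42.0, other scalings, no filter, other count minimums and leaving out each library were alternatives. Scripts were tested on simulated data. The genes, the lists and the rule that names them (all regions called, or the highest of a gene; for other genes the called promoters or the 2 with the largest log2) were chosen with earlier results of these data known. Depth, 6416704 to 42007820 counts per library, limits sites under about 1 CPM.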

Additional observations from a re-analysis of the deposited data

How the results depend on the processing

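No paired analysis was possible because the labels give no replicate numbers to pair by; Hells ATAC libraries could be blocked by the library batch they share, and F1 alleles were blocked by library. Counts of calls among the 10 genes moved with the libraries used. KI against B6 in ATAC gave 5 to 12 calls when each library was left out, 11 without B6 replicate 1 and 12 without B6 replicate 2, against 7; over all regions the range was 6499 to 18809 (16458 without B6 replicate 2), against 7703. H3K9ac in KI gave 0 to 20, against 5, with 20 without B6 replicate 2, 1 without B6 replicate 3 and 0 without either KI library, and 9 with B6 replicate 2 alone as the reference, where the 2 KI libraries supply all of the spread; over all regions it gave 0 to 50946, and 22971 with that reference (7075 and 1987 without B6 replicates 1 and 3), against 11312. Spo11/Spo11 against B6 gave 0 to 13 calls, and over all regions 0 to 32841, 1936 with B6 replicate 2 alone and 16 with DESeq2, against 0. H3K4me3 in Hells CKO gave 4 to 6, against 5; with all HELLS-competent libraries as the reference all regions gave 14945, against 9245. Hells ATAC gave 1 call with library batch as a term, against 0, and over all regions 1211, against 363, with 0 to 627 when a library was left out (133 without Hells wt replicate 1, 0 without Hells CKO replicate 3). Spo11/Spo11 against Spo11/+ gave 5 over all regions with DESeq2 and 0 to 2 when a library was left out. The F1 test gave 3 calls with DESeq2, against 9, and 3021 over all regions, against 9769. Hells het DMC1 peaks counted at 1 promoter, H19, with windows of 500 bases or by peak centre, against 2. The cause of these shifts was not tested. In H3K4me3 of Hells CKO, DESeq2 gave 1042 higher and 7802 lower over all regions, against 22 and 9223, and the median log2 of all regions was -0.17 with library size alone and 0.09 with RLE size factors, against -0.02, and for H3K9ac in KI it was -0.22 with library size alone, against -0.07. No called value changed sign. A batch term in H3K4me3 could not be fitted with a test.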
